A study of Homo sapiens with 6 samples.

Results

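The 10 genes described here encode chemokines and cytokines that A549 cells transcribe. They are 5 CXC chemokines (CXCL1, CXCL2, CXCL3, CXCL5 and CXCL8), 3 CC chemokines (CCL2, CCL20 and CCL26) and 2 other cytokines (IL12A and IL32), out of 53826 gene entries in each table and 13181 entries analysed. They were found by gene symbol, with 1 entry each. The list had been chosen by values measured in these same libraries, with the difference between the lines known both with and without A549-GFP replicate 2. Therefore, the levels and differences of the 10 genes are given as a description, with no test.

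RNA was sequenced from 2 stable derivatives of A549, a human lung adenocarcinoma cell line, with 3 libraries of each. A549-TIPARP cells had been transduced with a retroviral pMXs vector carrying the TIPARP coding region, amplified from A549 cells that expressed OCT3/4, KLF4 and SOX2. A549-GFP cells had received GFP in the same vector and served as the control. Both lines were grown as cultured cells, with no other treatment or time point given in the labels, and the labels do not say whether the 3 numbered experiments were separate cultures, so any p-value measures only the spread between these libraries, which may be technical. The sources do not describe either line as a single clone. The comparison addressed which genes differ when TIPARP, an enzyme that attaches single ADP-ribose units to proteins, is overexpressed.

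Chemokines are small secreted proteins that direct the migration of leukocytes through receptors coupled to G proteins. The 5 CXC chemokines here carry the Glu-Leu-Arg motif before their first cysteines, attract neutrophils mainly through CXCR2 and are known to promote angiogenesis. CCL2 attracts monocytes through CCR2, CCL20 attracts CCR6-bearing lymphocytes and dendritic cells, and CCL26 (eotaxin-3) attracts eosinophils through CCR3. IL12A encodes the p35 subunit, which forms IL-12 with the product of IL12B and IL-35 with the product of EBI3. IL32 encodes a cytokine that induces other inflammatory mediators. In epithelial cells, many of these genes are known to respond to NF-kappaB, a transcription factor released from its inhibitors by inflammatory signals, together with AP-1 and C/EBP factors.

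The 5 CXC chemokine genes lie together on chromosome 4 of hg38, within 359 kb, each with 4 exons in its canonical GENCODE 44 transcript. CXCL8 (73740519 to 73743716) and CXCL1 (73869393 to 73871308) are on the plus strand. CXCL5 (73995642 to 73998677), CXCL3 (74036589 to 74038807) and CXCL2 (74097040 to 74099196) are on the minus strand. The other members are on other chromosomes, with CCL2 on chromosome 17 (34255274 to 34257208), CCL20 on chromosome 2 (227805739 to 227817564), CCL26 on chromosome 7 (75769533 to 75789896), IL12A on chromosome 3 (159988835 to 159996019) and IL32 on chromosome 16 (3065297 to 3082192). The promoter windows of RefSeq (GRCh38.p14), from 250 bases before to 50 bases after the transcription start, were available for 9 of the 10 genes. CCL2 had none. The 130 bases before the start are shown for the 7 genes in which A549-GFP replicate 2 stood more than 2-fold above the other A549-GFP libraries, namely the 5 CXC chemokine genes, CCL20 and IL32. For IL32, which has 2 windows, the stretch is from the window that held matches. Whether any motif is related to that library was not tested. Capitals mark the kappaB match GGAATTTCC, or, in CCL20 and IL32, the looser match described after the sequences.
CXCL1: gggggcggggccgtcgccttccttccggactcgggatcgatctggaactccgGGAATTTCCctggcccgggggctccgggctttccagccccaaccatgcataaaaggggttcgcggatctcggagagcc
CXCL2: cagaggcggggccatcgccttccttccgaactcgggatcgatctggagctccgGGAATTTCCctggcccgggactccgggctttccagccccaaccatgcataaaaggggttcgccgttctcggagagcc
CXCL3: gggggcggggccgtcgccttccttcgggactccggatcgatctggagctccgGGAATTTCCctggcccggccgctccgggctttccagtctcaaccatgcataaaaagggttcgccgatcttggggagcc
CXCL5: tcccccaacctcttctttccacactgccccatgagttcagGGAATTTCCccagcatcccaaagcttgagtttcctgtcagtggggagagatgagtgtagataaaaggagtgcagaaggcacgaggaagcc
CXCL8: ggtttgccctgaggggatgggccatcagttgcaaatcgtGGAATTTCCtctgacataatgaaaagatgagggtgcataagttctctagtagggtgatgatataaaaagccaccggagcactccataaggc
CCL20: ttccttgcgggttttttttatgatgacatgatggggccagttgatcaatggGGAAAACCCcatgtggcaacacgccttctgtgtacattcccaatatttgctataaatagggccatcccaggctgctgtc
IL32: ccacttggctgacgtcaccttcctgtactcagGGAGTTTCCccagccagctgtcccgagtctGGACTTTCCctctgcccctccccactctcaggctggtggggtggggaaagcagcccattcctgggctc

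These stretches are chr4:73869263-73869392 (plus strand), chr4:74099196-74099325 (minus), chr4:74038690-74038819 (minus), chr4:73998678-73998807 (minus), chr4:73740439-73740568 (plus), chr2:227813712-227813841 (plus) and chr16:3065273-3065402 (plus). All are written 5′ to 3′ on the strand of the gene, so the last base of each line directly precedes the start of the RefSeq window's transcript. These starts differ from the outer bounds of the GENCODE genes given above for several genes, so that the stretches of CXCL3, CXCL8, CCL20 and IL32, and 1 base of that of CXCL2, lie within those bounds in whole or in part. The letters searched were chosen after the windows had been read, and matches on both strands were counted. GGAATTTCC was present in the windows of all 5 CXC chemokine genes and of none of the other 4 matched members. It was found in 162 of the 35116 windows of the whole RefSeq table, or 0.461%. Its first base lay 78 bases before the start in CXCL1 and CXCL3, 77 in CXCL2, 90 in CXCL5 and 91 in CXCL8. The looser form GGNNTTTCC, which includes every GGAATTTCC, was present in 6.26% of all windows and in 7 of the 9 members, the 2 additions being CCL20 (minus strand, 79 bases before the start) and IL32 (98 and 68 bases before). The AP-1 motif TGANTCA, present in 7.71% of windows, was found only in CXCL8 among the members, 137 bases before its start. The cyclic AMP response element TGACGTCA (1.85% of windows) was found only in IL32, and TATAAA (11.5% of windows) in CXCL8 and CCL20. CCL26 and IL12A had none of these letters in their windows. A match is a description of the sequence and not a measured binding site.

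**Figure D1:**
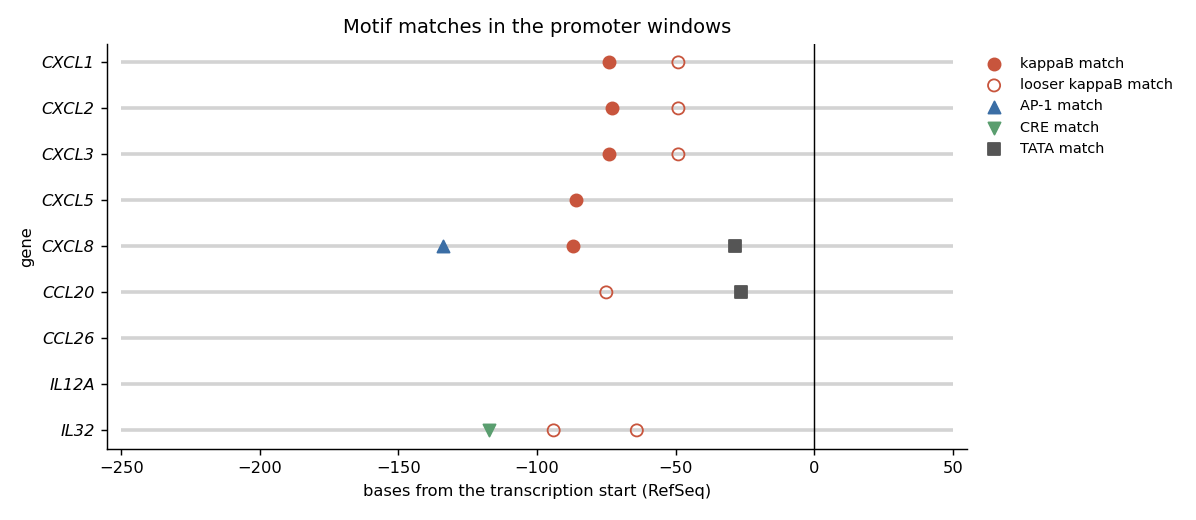
Positions of motif matches in the RefSeq promoter windows of 9 genes, with bases from the transcription start on the horizontal axis and 1 gene per line (for IL32 the matches are those of 1 of its 2 windows, and the other had none). Filled circles are GGAATTTCC, open circles other matches of GGNNTTTCC, triangles TGANTCA (up) and TGACGTCA (down) and squares TATAAA. The filled circle lies between 77 and 91 bases before the start in all 5 CXC chemokine genes.

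CXCL1, CXCL2 and CXCL3 are close copies of each other. Their 130-base stretches were 92.4% identical between CXCL1 and CXCL2, 91.5% between CXCL1 and CXCL3 and 87.8% between CXCL2 and CXCL3, against 38.5% between CXCL1 and CXCL8. In the canonical transcripts, 5.33% of the 50-base windows of CXCL1, 10.1% of those of CXCL2 and 5.26% of those of CXCL3 also occurred in another chemokine gene, always one of these 3. The other 7 members shared no 50-base window with another chemokine gene. How reads that match several genes were assigned is not given in the sources used here, so the split of reads among CXCL1, CXCL2 and CXCL3 is uncertain over these shared parts.

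The libraries were deposited as log2 TPM. TPM (a length-corrected abundance in which every library has the same total) gives an entry's share of a library corrected for length, so levels can be compared between genes. It keeps no depth, which is unknown here, and no counting error can be given. TPM below 1 had been set to 1, so a value listed at 0 on the log2 scale means at most 1 TPM. TIPARP was at 3.68 to 11.4 TPM in A549-GFP cells and at 90.5 to 131 TPM in A549-TIPARP cells, as labelled. A549-GFP replicate 2 stood apart from the other libraries. The root mean square distance of its log2 values to its line's mean was 0.621, against 0.185 to 0.400 in the other 5 libraries. It was the highest of the 6 libraries for 52.0% of all analysed genes, and more than 2-fold above the mean of the other A549-GFP libraries for 18.0%. The differences between the lines are therefore given with and without it. Where 3 TPM values of a line are listed, they are those of replicates 1, 2 and 3 in that order, and the A549-GFP libraries are also called the control. The epithelial and A549 markers EPCAM, KRT8, KRT18, CDH1, AKR1B10, AKR1C1, NQO1 and ALDH1A1 were present in every library, and CDKN2A, which is deleted in A549, was listed at 0 in all 6. Of 7 leukocyte markers, PTPRC, CSF1R, CD3E and MS4A1 were listed at 0 in every library. The summed level of the list was 31.9 to 79.0 TPM in A549-GFP and 32.9 to 48.5 TPM in A549-TIPARP cells, most of it CD68. From A549-GFP to A549-TIPARP cells CD68 differed by -0.43 in mean log2 TPM, and by -0.02 without A549-GFP replicate 2. CD14 (0.80 and 1.49) and LYZ (0.56 and 0.83) went the other way. For both, all A549-TIPARP libraries were above A549-GFP replicates 1 and 3, as for 21.2% of all genes. All 5 endothelial markers were listed at 0 in every library. Of 7 fibroblast and smooth muscle markers 5, among them COL1A2 and PDGFRB, were at 0 throughout, and the sum was 14.5 to 34.7 TPM in A549-GFP and 20.1 to 41.3 TPM in A549-TIPARP cells, most of it ACTA2. A549-GFP replicate 2 held the highest leukocyte sum and the lowest epithelial sum (21776 TPM against 32740 to 36818 TPM in the other libraries). The single markers did not all follow these sums. KRT8, KRT18 and ALDH1A1 were lowest in that library, CDH1 (142 TPM) and AKR1C1 (3334 TPM) were highest, and EPCAM, AKR1B10 and NQO1 were neither. CD68 was highest there (68.1 TPM), while CD14 (5.63 TPM) and LYZ (7.25 TPM) were highest in A549-TIPARP libraries. The part of any of this in the chemokine values was not tested.

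With all 6 libraries, 9 of the 10 genes had a lower mean log2 TPM in A549-TIPARP cells, where 59.9% of all analysed genes did. Without A549-GFP replicate 2, 4 of the 10 did, against 42.6% of all genes. The median log2 difference (A549-TIPARP minus A549-GFP) of the 10 genes was -0.48 with all libraries and 0.11 without that library, while the median of all 13181 genes was -0.07 and 0.05. More than 2-fold lower were CXCL2, CCL20 and IL12A, 3 of 10 against a background of 0.432%, and no member was more than 2-fold higher (background 1.53%). With a pseudocount of 1 none of the 10 genes was past 2-fold, at -0.94 for CXCL2, -0.96 for CCL20 and -0.89 for IL12A on the log2 scale. With arithmetic means of TPM, which weigh the highest library more, 6 of the 10 were past 2-fold lower. The share of all genes under these means was not computed, so that count has no background. Without A549-GFP replicate 2, IL12A and CCL26 were more than 2-fold lower (background 0.296%) and IL32 was more than 2-fold higher (background 2.91%). Nothing is read from these counts, because the same values chose the genes. In these bulk libraries fewer cells that transcribe a gene and less RNA per cell cannot be told apart.

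**Figure D2:**
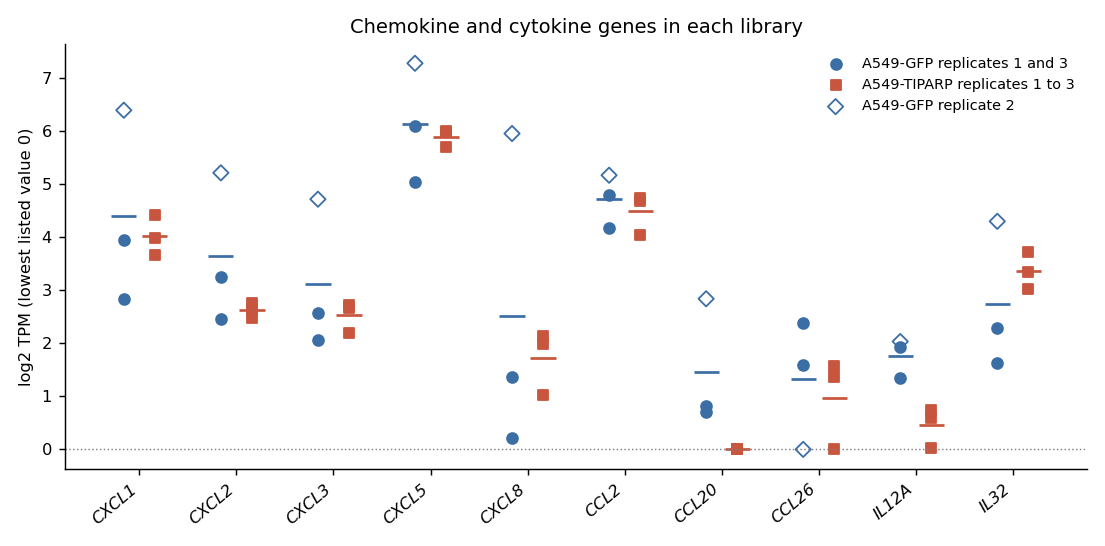
Level of each of the 10 genes in each of the 6 libraries, as log2 TPM on the vertical axis. Blue circles are A549-GFP replicates 1 and 3, open diamonds A549-GFP replicate 2, red squares the A549-TIPARP replicates and short lines the mean of each line (n = 3). The diamond is the highest point for 9 genes and for CCL26 it is at 0, the lowest value, together with A549-TIPARP replicate 3.

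CXCL8, the main neutrophil attractant of human epithelium, varied most among the 10 genes, with a standard deviation of 2.00 over the 6 libraries on the log2 scale. It measured 2.56, 61.7 and 1.16 TPM in the control replicates and 2.04, 4.37 and 3.96 TPM in the TIPARP replicates. A549-GFP replicate 2 was thus far above every other library, and the lines overlapped. The log2 difference was -0.79, from a mean of 2.51 ± 3.03 to one of 1.71 ± 0.60 log2 TPM (SD, n = 3). Without A549-GFP replicate 2 it was 0.93, on the other side of 0, from a mean of 0.79 ± 0.80 (SD, n = 2), and the lines still overlapped. A549-GFP replicate 2 stood 35.8-fold above the geometric mean of the other A549-GFP libraries. Among all 13181 genes 2 reached an excess of this size in that library, CXCL8 itself and G0S2.

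CXCL1, which shares CXCR2 with CXCL8, measured 15.4, 83.7 and 7.15 TPM in the control replicates and 15.9, 12.6 and 21.2 TPM in the TIPARP replicates. The A549-TIPARP libraries lay between the lowest and the highest A549-GFP library. Its mean was 4.39 ± 1.82 against 4.02 ± 0.38 log2 TPM (SD, n = 3), and the log2 difference was -0.37 with all libraries and 0.62 without A549-GFP replicate 2. That library stood 7.96-fold above the other A549-GFP libraries, an excess that 0.357% of all genes reached.

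CXCL2, a close copy of CXCL1, measured 9.52, 37.0 and 5.49 TPM in the control replicates and 6.24, 5.57 and 6.72 TPM in the TIPARP replicates. All 3 A549-TIPARP libraries were above A549-GFP replicate 3 and below replicate 1. The log2 difference of -1.02, or 2.02-fold lower, was -0.23 without A549-GFP replicate 2, or 1.17-fold lower, and no longer past 2-fold. The difference was smaller than the SD of the A549-GFP libraries, with means of 3.64 ± 1.42 against 2.62 ± 0.14 log2 TPM (SD, n = 3).

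CXCL3, the third of these copies, measured 5.91, 26.2 and 4.15 TPM in the control replicates and 6.57, 6.31 and 4.59 TPM in the TIPARP replicates. Apart from A549-GFP replicate 2, the 5 libraries lay within 0.66 of each other on the log2 scale. With a mean of 3.11 ± 1.41 against 2.52 ± 0.28 log2 TPM (SD, n = 3), the log2 difference was -0.58 with all libraries and 0.22 without A549-GFP replicate 2.

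CXCL5, a neutrophil attractant of activated epithelium, had the highest level of the 10 genes in both lines. It measured 68.0, 154 and 32.6 TPM in the control replicates and 63.5, 63.2 and 51.6 TPM in the TIPARP replicates. The A549-TIPARP libraries lay between A549-GFP replicates 3 and 1. From 6.13 ± 1.12 to 5.89 ± 0.17 log2 TPM (SD, n = 3), the log2 difference was -0.24 with all libraries and 0.33 without A549-GFP replicate 2, which stood 3.28-fold above the other A549-GFP libraries. Of the 5 CXC chemokine genes, therefore, all had a lower mean in the TIPARP line with all libraries and 4 had a higher one without A549-GFP replicate 2. The exception was CXCL2, and in all 5 the lines overlapped both with and without that library. Other CXC chemokine genes of the same part of chromosome 4, CXCL6, PF4V1 and PPBP, were listed at 0 in all 6 libraries, and PF4 was at most 1.32 TPM.

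CCL2, the monocyte attractant, differed least between libraries, with a standard deviation of 0.42 over the 6 libraries on the log2 scale. It measured 27.7, 35.8 and 18.0 TPM in the control replicates and 25.7, 26.7 and 16.4 TPM in the TIPARP replicates. The lines overlapped, at 4.71 ± 0.50 against 4.49 ± 0.39 log2 TPM (SD, n = 3), and the log2 difference was -0.22 with all libraries and 0.0048 without A549-GFP replicate 2. That library stood 1.60-fold above the other A549-GFP libraries, an excess that 32.5% of all genes reached.

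CCL20 measured 1.63, 7.14 and 1.75 TPM in the control replicates. The TIPARP line had it listed at 0 in replicates 1 and 3, with 1.01 TPM in replicate 2. All A549-TIPARP libraries were below all A549-GFP libraries, as they were for 3.54% of all genes. Only A549-GFP replicate 2 passed the filter of more than 2 TPM, so this gene was analysed because of that 1 library. The log2 difference was -1.45 with all libraries, or 2.73-fold lower, and -0.75 without A549-GFP replicate 2, or 1.69-fold lower. Because the lowest listed level is 1 TPM, a larger difference would not show. The lines did not overlap without A549-GFP replicate 2 either, as for 6.42% of all genes.

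CCL26 was the member for which A549-GFP replicate 2 was not the highest library. It measured 5.19 and 3.03 TPM in control replicates 1 and 3 and was listed at 0 in replicate 2. Replicates 1 and 2 of the TIPARP line measured 2.98 and 2.56 TPM, and replicate 3 was listed at 0. The log2 difference was -0.35 with all libraries, from 1.32 ± 1.21 to 0.98 ± 0.85 log2 TPM (SD, n = 3), with the lines overlapping. Without A549-GFP replicate 2 it was -1.01, or 2.01-fold lower. The lines were then separated, as for 6.42% of all genes, with 3.03 and 2.98 TPM in their nearest libraries. The size of this fold depends on A549-TIPARP replicate 3, whose level is known only to be at most 1 TPM. The log2 difference of CCL26 was 0.18 without A549-GFP replicate 1 and 0.14 without A549-TIPARP replicate 3. It was -0.21 without A549-GFP replicate 3, -0.65 without A549-TIPARP replicate 1 and -0.54 without A549-TIPARP replicate 2, so each of the 6 libraries moved it by over 1.5 times. CCL24 (eotaxin-2), its neighbour on chromosome 7, was listed at 0 in all A549-GFP libraries and in A549-TIPARP replicate 3 and was at 2.43 and 1.73 TPM in A549-TIPARP replicates 1 and 2.

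IL12A measured 2.53, 4.09 and 3.79 TPM in the control replicates and 1.51, 1.67 and 1.02 TPM in the TIPARP replicates. The highest TIPARP value was below the lowest control value, as for 3.54% of all genes. This also held without A549-GFP replicate 2, as for 6.42% of all genes. The mean was 1.76 ± 0.37 log2 TPM in A549-GFP cells and 0.45 ± 0.38 in A549-TIPARP cells (SD, n = 3), a log2 difference of -1.31, or 2.48-fold lower. When A549-GFP replicate 2 was left out, the difference was -1.18, or 2.26-fold lower, and with any 1 library left out it ran from -1.52 to -1.10. A549-GFP replicate 2 was 1.32-fold above the other A549-GFP libraries, an excess that 48.8% of all genes reached. The levels were close to the filter of 2 TPM, which the 3 A549-GFP libraries passed and no A549-TIPARP library did, so this gene was analysed only through the line in which it is high. Of its partners, IL12B was listed at 0 in all 6 libraries. EBI3 was at 1.17, 1.58 and 1.81 TPM in A549-GFP and at 1.31, 2.65 and 1.85 TPM in A549-TIPARP replicates 1, 2 and 3, with the lines overlapping and a log2 difference of 0.31, or 0.35 without A549-GFP replicate 2.

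IL32 was the member with a higher mean in A549-TIPARP cells. It measured 4.86, 19.6 and 3.10 TPM in the control replicates and 13.1, 10.1 and 8.13 TPM in the TIPARP replicates. The A549-TIPARP libraries were all above A549-GFP replicates 1 and 3 and all below A549-GFP replicate 2. The mean was 2.73 ± 1.39 log2 TPM in the control and 3.36 ± 0.35 in the TIPARP line (SD, n = 3). The log2 difference was 0.63 with all libraries, or 1.54-fold higher, and 1.40 without A549-GFP replicate 2, or 2.65-fold higher. It was 0.07 when control replicate 3 was left out and 0.40 when control replicate 1 was. When A549-GFP replicate 2 was the library left out, the lowest TIPARP value exceeded the highest control value, as for 21.2% of all genes. No member had this separation with all 6 libraries, where 5.36% of all genes had it.

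**Figure D3:**
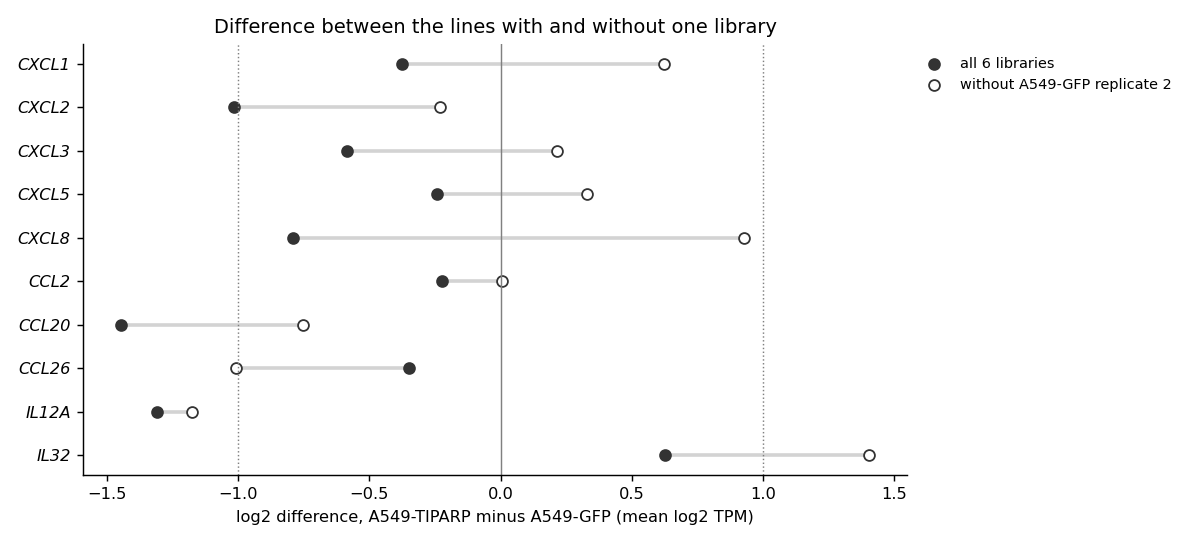
Difference between the lines in mean log2 TPM (A549-TIPARP minus A549-GFP) for each gene, with all 6 libraries (filled circles) and without A549-GFP replicate 2 (open circles). Dotted lines mark 2-fold. CXCL8 goes from -0.79 to 0.93, IL12A from -1.31 to -1.18 and IL32 from 0.63 to 1.40.

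A549-GFP replicate 2 was the highest of the 6 libraries for 9 of the 10 genes, against 52.0% of all genes, and more than 2-fold above the mean of the other A549-GFP libraries for 7 of the 10, against 18.0%. The 7 were the 5 CXC chemokine genes, CCL20 and IL32. Its median log2 excess was 2.21 over the 10 genes, 2.40 over the 5 CXC chemokine genes and 0.38 over all genes. These values were also among those that chose the genes, and are given as a description. Such an excess is a property of 1 library, so it has no replicate check.

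**Figure D4:**
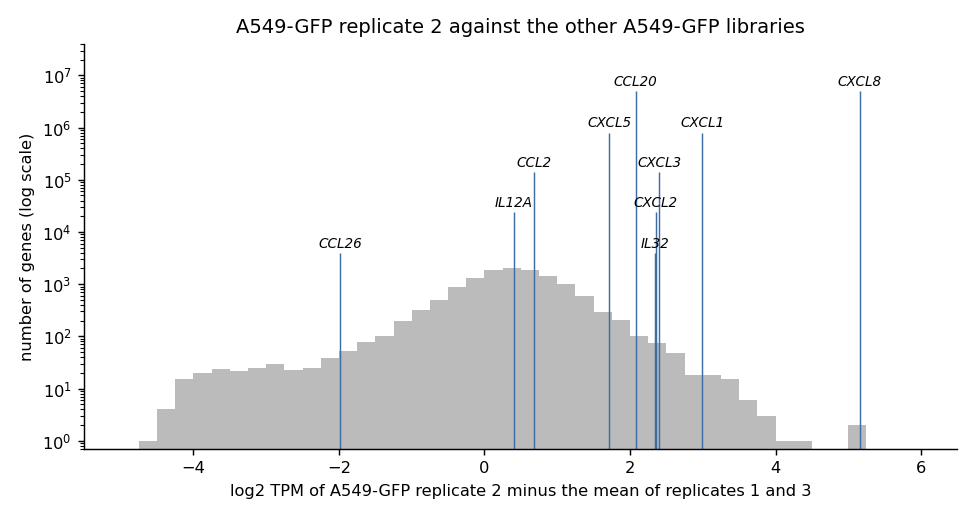
Number of the 13181 analysed genes (vertical, log scale) by the log2 TPM of A549-GFP replicate 2 minus the mean of A549-GFP replicates 1 and 3 (horizontal, bins of 0.25). Blue lines mark the 10 genes, and their heights only separate the names. CXCL8 lies at 5.16, CXCL1 at 2.99, CCL2 at 0.68, IL12A at 0.40 and CCL26 at -1.99.

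In order of geometric mean TPM, the A549-GFP line had CXCL5 (69.9), CCL2 (26.2), CXCL1 (21.0), CXCL2 (12.5), CXCL3 (8.63), IL32 (6.66), CXCL8 (5.68), IL12A (3.40), CCL20 (2.73) and CCL26 (2.50). No neighbours in this order were separated in their libraries. In A549-TIPARP cells the order was CXCL5 (59.2), CCL2 (22.4), CXCL1 (16.2), IL32 (10.3), CXCL2 (6.16), CXCL3 (5.75), CXCL8 (3.28), CCL26 (1.97), IL12A (1.37) and, near the floor, CCL20. Here every library of CXCL5 was above every one of CCL2, and the same held for IL32 over CXCL2 and CXCL3 over CXCL8. It also held for IL12A over CCL20, but the nearest values, 1.02 and 1.01 TPM, were at the floor, so that order is not resolved. The other neighbours overlapped. Leaving out A549-GFP replicate 2, the control geometric mean of CXCL8 was 1.73 TPM, rank 9 among the 10 genes.

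The 10 profiles over the 6 libraries were compared by the root mean square difference of their log2 TPM, after the mean of each gene was taken off. All profiles share the same libraries, so this is a description over 6 points. CXCL2 and CXCL3 had the most similar profiles of the 45 pairs, at 0.32, followed by CXCL3 and CXCL5 at 0.33 and by CXCL2 and CCL20 at 0.36. The largest difference, 2.50, was that of CXCL8 and CCL26. These ranks depended on A549-GFP replicate 2. In the other 5 libraries, a comparison added after the data were seen, CXCL3 and CCL2 were nearest at 0.13, CXCL3 and CXCL5 followed at 0.20, CXCL2 and CXCL3 were of rank 5 at 0.34, and the largest difference, 1.33, was that of IL12A and IL32. Outside the 10 genes, the profiles most like that of CXCL8 were those of G0S2 (0.57), CLGN (0.61), FAM129A (0.63), ADM2 (0.66) and CHAC1 (0.67). In each of these 5 genes A549-GFP replicate 2 was the highest library, from 14.7 TPM for FAM129A to 82.0 TPM for CLGN. The nearest to IL32 were CSF2RA (0.23), SP140L (0.24), SYTL2 (0.26), DLG3 (0.27) and MITF (0.28). The nearest to IL12A were TM4SF19-TCTEX1D2 (0.26), MIR6748 (0.27), RNU6-2 (0.27), ANKRD37 (0.28) and AREG (0.31). AREG, which encodes the EGF receptor ligand amphiregulin, was at up to 124 TPM, and the other 4 of the genes nearest to IL12A were at most 7.12 TPM.

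**Figure D5:**
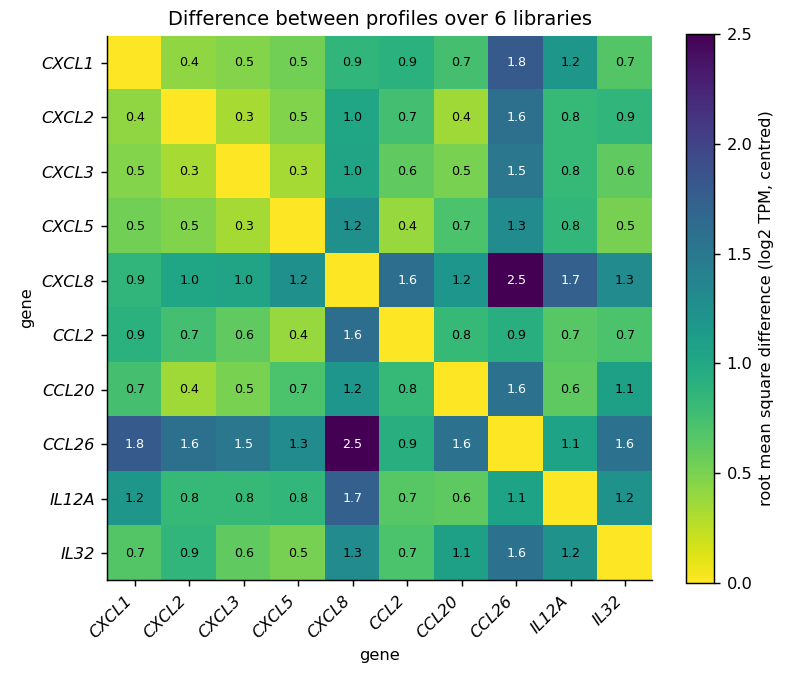
Root mean square difference (colour and printed value, log2 TPM after centring) between the profiles of each pair of the 10 genes over the 6 libraries, with genes on both axes. CXCL1, CXCL2, CXCL3 and CXCL5 differ from each other by at most 0.53, while CCL26 differs from CXCL8 by 2.5.

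Several receptors of these ligands were at or near the floor. CXCR1, CXCR2, CCR2, CCR3, IL12RB1 and IL12RB2 were listed at 0 in all 6 libraries. CCR6, the receptor of CCL20, was listed at 0 in 5 libraries and was at 1.14 TPM in A549-GFP replicate 1. IL6ST (gp130), a signalling chain that IL-35 shares with other cytokines, was at 9.27 to 21.6 TPM over the 6 libraries. Of 57 receptor genes of chemokines and cytokines 21 were analysed. None was called by limma and none was past 2-fold in either direction, with or without A549-GFP replicate 2. Their median log2 difference was -0.01, and 0.17 without that library.

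Few other chemokines were above the filter. Of 39 other chemokine ligands 3 were analysed (CXCL16, CCL5 and CCL24), none of which was called or past 2-fold. Of 57 other cytokines 10 were analysed and none was called or past 2-fold with all libraries. When A549-GFP replicate 2 was left out, CSF1, the macrophage growth factor, was 2.50-fold higher in A549-TIPARP cells (limma adjusted p = 0.225). TNFSF10, the death ligand TRAIL, was also past 2-fold higher (limma adjusted p = 0.493), but no fold is given because both control libraries left were listed at 0. The background was 2.91% of all genes. CSF1 measured 3.86, 10.8 and 2.96 TPM in the control replicates and 8.30, 7.01 and 10.3 TPM in the TIPARP replicates. TNFSF10 was listed at 0 in A549-GFP replicates 1 and 3, was at 3.86 TPM in replicate 2 and was at 2.24, 1.63 and 5.94 TPM in A549-TIPARP replicates. For both genes, as for IL32, the A549-TIPARP libraries were all above A549-GFP replicates 1 and 3, as for 21.2% of all genes, so 2 of the 10 other cytokines is near that share. For CSF1 they were all below A549-GFP replicate 2, and for TNFSF10 they lay on both sides of it.

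Transcription factors, RNA-binding proteins and other regulators known to act on chemokine genes or transcripts were also examined. Of 29 NF-kappaB subunits and feedback genes 27 were analysed, and 23 had a lower mean with all libraries (59.9% of all genes) and 9 without A549-GFP replicate 2 (42.6% of all genes). Their median log2 difference was -0.24 and 0.10. A549-GFP replicate 2 was the highest library for 22 of the 27, as for 52.0% of all genes, and more than 2-fold above the other A549-GFP libraries for 11, as for 18.0% of all genes. Singled out after their values were seen, IRAK2, a kinase adaptor of interleukin-1 receptors, was 7.49-fold above the other A549-GFP libraries there. RELB, an NF-kappaB subunit singled out likewise, was 4.43-fold above them. The other subunits analysed, NFKB2, NFKB1 and RELA, were 2.33-fold, 1.32-fold and 1.31-fold above them. NFKBID, TRAF2 and NFKBIB were below the other A549-GFP libraries there. TNFAIP3, the feedback inhibitor A20, was at 6.61 TPM there, with 1.01 TPM in A549-GFP replicate 1 and listed at 0 in replicate 3. Of 13 AP-1, C/EBP and ATF3 factors 12 were analysed. ATF3, a stress-induced factor, was past 2-fold lower, as were 0.432% of all genes (2.12-fold, limma adjusted p = 0.994), at 4.72, 20.3 and 3.67 TPM in A549-GFP and 3.64, 2.86 and 3.53 TPM in A549-TIPARP replicates 1, 2 and 3. Leaving out A549-GFP replicate 2, it was 1.25-fold lower. All 14 genes of a broad list of mRNA decay and related regulators, not all of them decay factors, were analysed. ZFP36L1, which binds AU-rich transcripts, was 2.21-fold higher without A549-GFP replicate 2 (limma adjusted p = 0.268) and 1.52-fold higher with it. Without that library 2.91% of all genes were past 2-fold higher.

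Over the 6 lists of receptors, other ligands and regulators together, 0 of 87 analysed genes were called by limma at an adjusted p-value under 0.05, with a trend, without a trend or without A549-GFP replicate 2. Of all genes 0.0152% were called with all libraries (TIPARP and RBM14-RBM4) and 0.0228% without A549-GFP replicate 2. Unadjusted p-values were under 0.05 for 4 of the 87 with all libraries, against 3.85% of all genes, and for 13 without A549-GFP replicate 2, against 10.5%. The 4 are near the background share, and there were 3 without the trend. All 4 had a lower mean in the TIPARP line, while of the 13 without A549-GFP replicate 2 a lower mean was found for 3 and a higher one for 10. Directions were not tallied for all genes with such p-values. Whatever their p-value, 59.9% of all genes had a lower mean, and 42.6% without A549-GFP replicate 2. The 4, named because of their small number and outside the rule for named genes, were NFKBIA, FOSL1, CEBPB and ZC3H12A. NFKBIA encodes the inhibitor of NF-kappaB and measured 80.1 to 91.4 TPM in the TIPARP line, with 167 TPM in A549-GFP replicate 2 and less in the other control libraries. Its log2 difference was -0.57 with all libraries and -0.35 without A549-GFP replicate 2, and the lines did not overlap in either case. CEBPB, a factor of inflammatory gene transcription, had a log2 difference of -0.68 and -0.35, and FOSL1, an AP-1 subunit, one of -0.80 and -0.62, also without overlap. All A549-TIPARP libraries were below all A549-GFP libraries for 3.54% of all genes, and for 6.42% without A549-GFP replicate 2. Of the 87 list genes 4 had this separation (ATF3 was the fourth), and 1, IFNGR2, a chain of the interferon-gamma receptor, had the opposite one, against 5.36% of all genes. Without A549-GFP replicate 2 it was 7 below and 17 above, the latter against 21.2% of all genes. ZC3H12A, a ribonuclease that degrades inflammatory transcripts, had a log2 difference of -0.72 and -0.45. Its lines overlapped, with 62.0 TPM in A549-TIPARP replicate 3 and 53.2 TPM in A549-GFP replicate 3, and its unadjusted limma p was 0.171 without A549-GFP replicate 2.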

How the data were processed

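RNA-seq data from 3 A549-GFP and 3 A549-TIPARP libraries were used. The authors used Strand NGS with its default settings to align paired-end reads against hg38 transcripts, and deposited 1 table of log2 TPM per library, with TPM below 1 set to 1. The software version and annotation release are not given in the sources used here. Groups and replicate numbers were taken from the sample titles. An entry was analysed if any of the 6 libraries exceeded 2 TPM, and this set was kept when a library was left out. Differences are those of mean deposited log2 values. limma 3.58.1 in R 4.3.3, with a trend of the variance and adjustment by Benjamini-Hochberg, was run on log2(TPM + 1) over all 13181 genes, where the pseudocount lowers the differences of low genes. The tables give no read counts, so no count model was used. On simulated data for the 13181 genes, with 200 genes changed by 3 on the log2 scale, limma called 198 genes, 185 of them changed. The differences of the list genes were all smaller than 3 on the log2 scale. Whether limma would call changes of their size was not tested.

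The members, lists and tests were chosen with earlier results of these data known. By rule, genes named are the 10 members, TIPARP, genes of 6 lists that were called or past 2-fold with or without A549-GFP replicate 2, partners of members, and the 5 genes with profiles nearest to CXCL8, IL32 and IL12A. Outside this rule, IRAK2, TNFAIP3, RELB, NFKB1, NFKB2, RELA, NFKBID, TRAF2 and NFKBIB were named after their values were seen. So were NFKBIA, FOSL1, CEBPB, ZC3H12A, IFNGR2, IL6ST, CXCL16, CCL5 and RBM14-RBM4. Markers and neighbouring genes were also outside this rule, but were not named after their values were seen. Gene positions are from GENCODE 44 (hg38) and promoters from RefSeq (GRCh38.p14). Alternatives were other pseudocounts, filters and means, rescaling by median ratios, no trend, a replicate block, a 1.5-fold threshold and each library left out.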

Additional observations from a re-analysis of the deposited data

How the results depend on the processing

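Of the log2 differences of the 10 genes, all kept their direction with a pseudocount of 1, with arithmetic means of TPM and with rescaling by median ratios. Arithmetic means moved the log2 difference from -0.79 to -2.66 for CXCL8, from -0.37 to -1.10 for CXCL1, from -0.58 to -1.05 for CXCL3, from -0.24 to -0.52 for CXCL5, from 0.63 to 0.19 for IL32 and from -0.48 to -1.08 for the median. Past 2-fold lower were 3 of the 10 genes, 0 with a pseudocount of 1, 2 after rescaling, 6 with arithmetic means and 6 without A549-GFP replicate 3. Of all 13181 genes 57 were, 20 with a pseudocount of 1, 37 after rescaling and 200 without A549-GFP replicate 3. For arithmetic means the count over all genes was not computed. Leaving out A549-GFP replicate 2 turned the direction of CXCL1, CXCL3, CXCL5, CXCL8 and CCL2, and leaving out A549-TIPARP replicate 3 that of CCL2 and CCL26 (0.14). When single libraries were omitted, the log2 difference ran from -1.94 to 0.93 for CXCL8, from -1.15 to 0.62 for CXCL1, from -0.79 to 0.33 for CXCL5, from -1.11 to 0.22 for CXCL3, from -0.49 to 0.0048 for CCL2 and from -1.01 to 0.18 for CCL26. Their median ran from -1.13 to 0.11, and from 4 to 9 of the 10 had a lower mean, 4 being without A549-GFP replicate 2. IL12A (from -1.52 to -1.10), CCL20 (from -1.82 to -0.75) and CXCL2 (from -1.61 to -0.23) were lower in all 6 of these fits. IL32 was higher in all 6, from 0.07 without A549-GFP replicate 3 to 1.40 without A549-GFP replicate 2. The ends for CCL20 and CXCL2 nearest to 0 were those without A549-GFP replicate 2.

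Over all genes limma called 2, and 1 with no filter (entries at 0 in every library could not be fitted). With each library left out it called from 1 to 3. A replicate block of the experiment number gave 1 call, and none of the 87 list genes. The fit without a block was the planned main fit. Deviations of same-numbered libraries correlated with r = 0.415, -0.486 and -0.358, and no A549-GFP library correlated best with its own number. These deviations are from means of only 3 libraries, 1 of which stood apart, so they cannot show whether same-numbered libraries were paired. Genes past 2-fold higher were 202, and 78 with a pseudocount of 1. Omitting single libraries gave 228 to 383, the value 383 being without A549-GFP replicate 2 and 324 being without replicate 1 of that line. Genes past 2-fold lower were 57, with 20 under a pseudocount of 1 and 37 after rescaling. They ran from 39 to 200, being 200 without A549-GFP replicate 3, 153 without replicate 1 of that line and 103 without A549-TIPARP replicate 3. Of the 87 list genes 1 was past 2-fold, against 0 with a pseudocount of 1, 13 at 1.5-fold and 1 to 4 when single libraries were omitted. The share of all genes past 1.5-fold was not computed, so nothing is read from the 13. Without A549-GFP replicate 2, 0 of the 5 genes nearest to CXCL8, 0 of those nearest to IL32 and 2 of those nearest to IL12A remained. The cause was not tested for any of these. The floor of 1 TPM limits what can be seen of CCL20, CCL26, TNFSF10 and TNFAIP3, which were listed at 0 in some libraries.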
